A study of Mus musculus with 9 samples.

Results

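Chemokines are small secreted proteins that steer leukocyte migration, and the genes described here are the mouse chemokine ligands and their G protein-coupled receptors. Members were the genes of the mRNA table whose symbol starts with Ccl, Cxcl, Ccr or Cxcr followed by a digit, together with Cx3cl1, Cx3cr1, Xcl1 and Xcr1. This rule took 64 of the 21873 genes in the table, with 59 distinct symbols, and comprised 45 ligand and 19 receptor genes. Total liver RNA of 9 male C57BL/6 mice, 8 weeks old when obtained, was profiled by RNA-seq in 3 groups of 3. Control mice received normal saline intraperitoneally for 8 weeks, and TAA mice received thioacetamide, a hepatotoxin that induces liver fibrosis, at 200 mg/kg every 3 days for 8 weeks. Livers of both groups were taken 72 h after the last injection. Recovery mice received the same 8 weeks of thioacetamide and were then left without it for another 8 weeks, so in this group age at collection and time since withdrawal cannot be told apart. There was no saline group of the same age as the Recovery mice among these 9.

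Chemokine ligands of the CC, CXC, CX3C and C classes bind receptors on passing leukocytes and on resident cells, and most are held on endothelium and matrix by glycosaminoglycans. In the liver, Ccl2 acting on Ccr2 is known to draw in monocytes during injury, Cxcr2 ligands draw in neutrophils, Cxcr3 ligands draw in activated T cells, and Cxcl12 acting on Cxcr4 serves retention and homing. Several ligands are induced by NF-kappaB or interferon signalling, whereas others are made at rest.

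Levels are given as scaled FPKM, that is, fragments normalized to exon length and library size and then divided by 1 factor per library. The factors were 0.827, 0.855 and 0.878 in the Control libraries, 1.29, 1.32 and 1.38 in the TAA libraries and 0.899, 0.893 and 0.907 in the Recovery libraries. This scaling lowered TAA values against Control values by 0.64 on the log2 scale, and every change is reported relative to it. The depth, estimated from low values that fall on whole fragments, was 27, 35.7 and 32.9 M fragments in Control, 40.6, 39 and 38.7 M in TAA and 35, 40.8 and 40.7 M in Recovery. At these depths, 1 fragment on a gene of 1 kb was worth between 0.0245 and 0.037 FPKM, and longer genes gather more fragments at the same FPKM. Between 59.7% and 68.9% of the low values of each library were whole within 0.08 of a fragment, against 16% by chance.

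Of the 64 members, 38 had a mean of at least 0.1 FPKM over the 9 libraries and were tested, 26 ligands and 12 receptors. Another 24 were above 0 in some library but below this minimum, and 2, Ccl26 and a scaffold copy of Ccl19, were listed at 0 throughout. The lowest mean among tested members was 0.103 FPKM, for Ccl28, and the highest among untested members was 0.0895 FPKM, for the chromosome copy of Ccl21a. Of the tested members, 6 were below 0.1 FPKM in both the Control and the Recovery mean and so entered through their TAA values, which makes shares of the tested members no evidence about all members. A member is named as higher or lower, or as rising or falling, where the limma test gave an adjusted p under 0.05 over all tested genes and at least a 2-fold change on the log2(scaled FPKM + 0.1) scale. The added 0.1 makes the fold changes of low genes smaller than the ratio of their means.

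After 8 weeks of TAA, 16 members were higher than in Control and 1, Cxcl12, was lower, while 21 tested members did not pass. Among all 14094 tested genes, 17% were higher and 8.02% were lower. Without the minimum, the fit covered 62 members, of which 16 were again higher and 1 lower, and their median log2 fold change was 0.47 against 0.06 over all 17541 genes. After withdrawal, 14 members were lower in Recovery than in TAA and 2, Cxcl12 and Cxcl13, were higher, against 14.3% lower and 7.12% higher among all tested genes. Between Recovery and Control, limma called 0 of 38 members in either direction, against 0.582% of genes higher and 0.412% lower, and 11 members had an unadjusted p under 0.05, beside 23% of all tested genes. The comparisons of TAA with Control and of Recovery with TAA share the TAA libraries, so their values are given side by side and not as independent observations. In bulk liver RNA, a change in the number of cells of a type cannot be told apart from a change in RNA per cell.

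The scaling sets part of these counts. With FPKM as deposited, 24 members were higher in TAA and 0 lower, and with quantile normalization 9 were higher and 4 lower. The same settings moved the share of higher genes among all called genes from 67.9% to 91.2% and to 53.1%. In Recovery against TAA, FPKM as deposited gave 0 members higher and 18 lower, and quantile normalization gave 4 higher and 10 lower, and the share of higher genes among all called genes went from 33.2% to 9.89% and to 46.5%. No call of a member turned to the opposite direction under either scaling. Of the 17 members called in TAA against Control, 9 were called under all 3 scalings, namely Ccl2, Ccl5, Cxcl5, Cxcl10, Cxcl14, Cx3cl1, Ccr2, Cxcr2 and Cxcr4. Of the 16 called in Recovery against TAA, 10 were called under all 3, namely Ccl2, Ccl6, Cxcl1, Cxcl5, Cxcl10, Cxcl14, Cx3cl1, Ccr1, Ccr2 and Cxcr2.

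**Figure D1:**
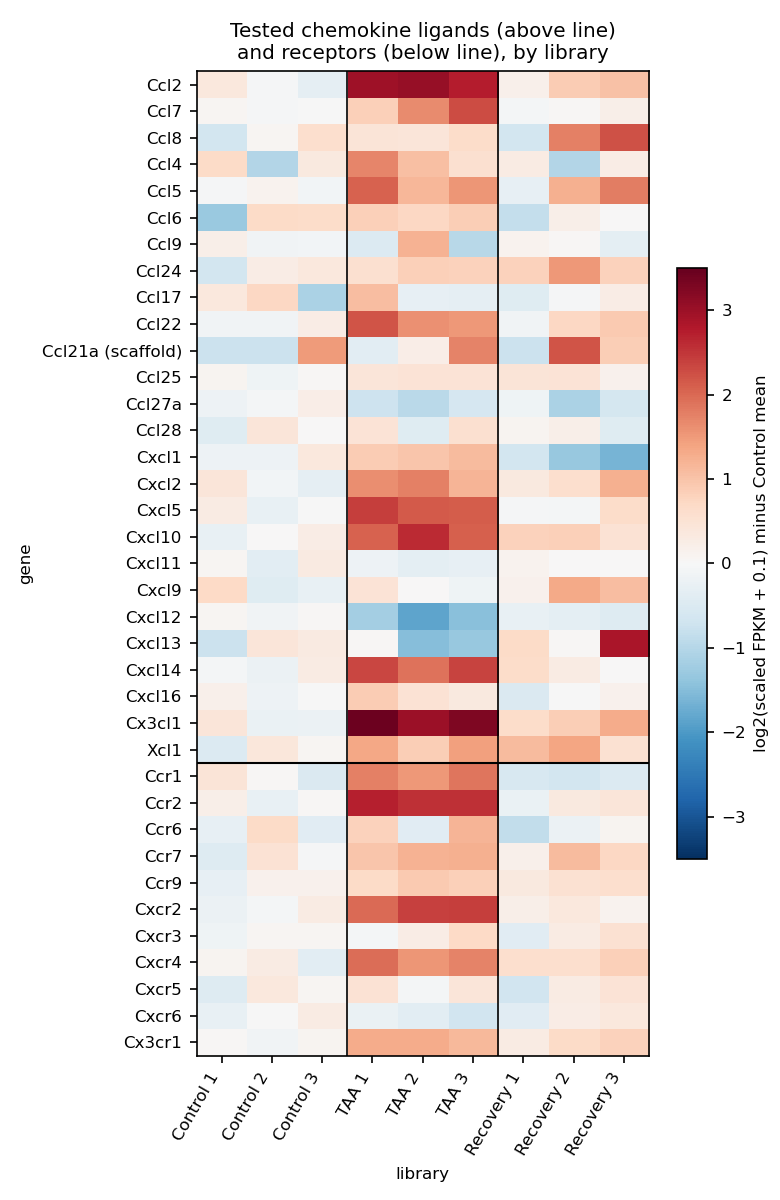
Level of tested members in each of the 9 libraries, as log2(scaled FPKM + 0.1) minus the mean of the 3 Control libraries, with red above and blue below it. Ligands stand above the horizontal line and receptors under it, and the red block in the TAA columns is deepest for Cx3cl1, Ccl2 and Ccr2.

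**Figure D2:**
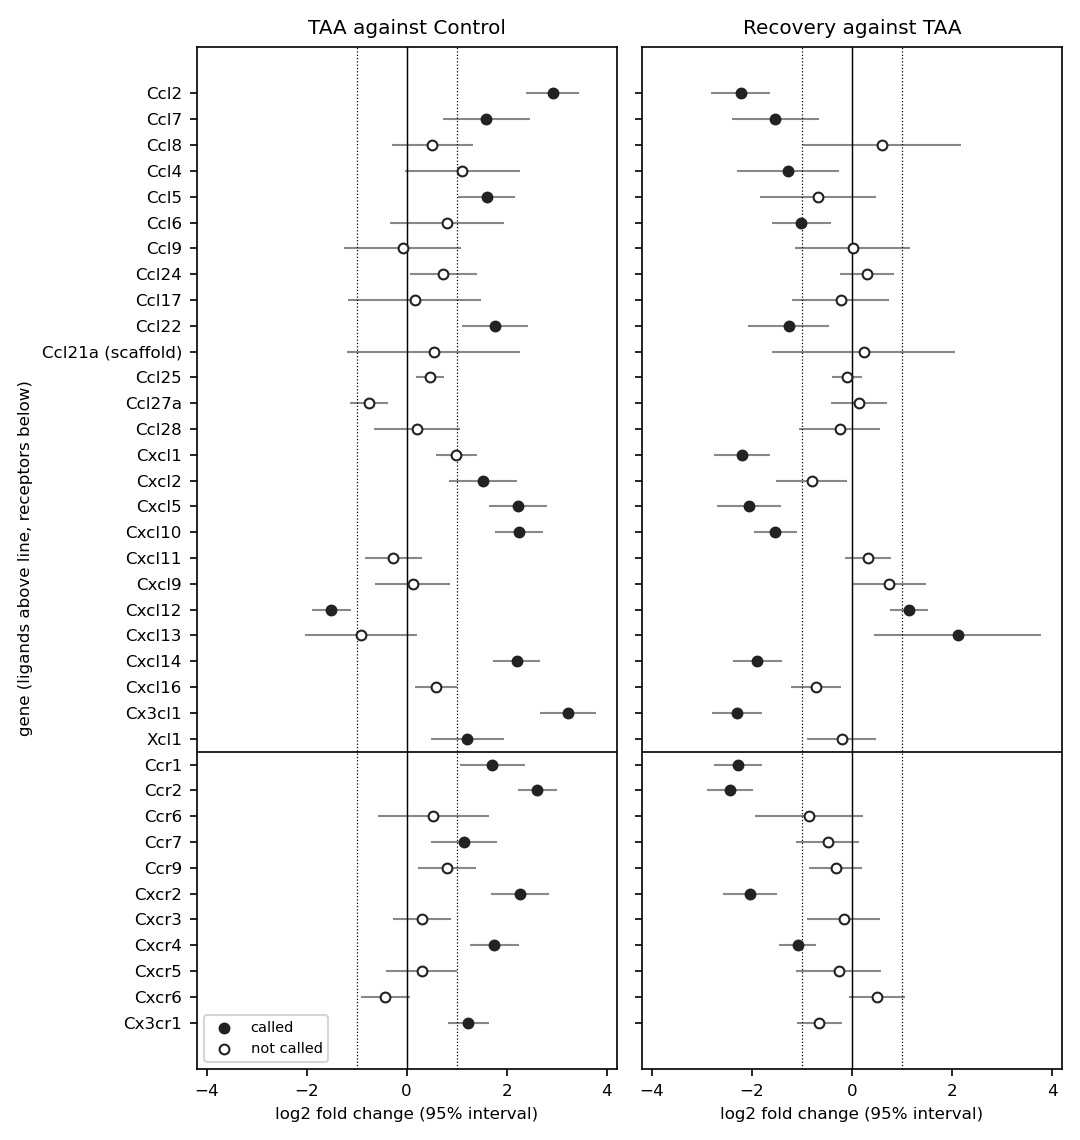
Log2 fold change of tested members with its 95% interval, for TAA against Control on the left and Recovery against TAA on the right, with dotted lines at a 2-fold change. Filled points are the 17 and 16 called members, and both panels share the 3 TAA libraries.

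Among the monocyte-attracting CC ligands, Ccl2 and Ccl7 rose in TAA and fell in Recovery. Ccl2, the main ligand of Ccr2, measured 0.193, 0.121 and 0.0832 scaled FPKM in Control, 1.67, 1.79 and 1.42 in TAA and 0.158, 0.324 and 0.364 in Recovery. All TAA mice were above all others, whereas the Control and Recovery ranges overlapped. In estimated fragments this was 5, 4 and 3 in Control, 99, 105 and 86 in TAA and 6, 13 and 15 in Recovery, so the Control level rests on few fragments. The log2 fold change was 2.92 (SE 0.23, adjusted p = 4.9e-05) in TAA against Control and -2.22 (SE 0.25, adjusted p = 0.00029) in Recovery against TAA. Ccl7, another Ccr2 ligand, measured 0.0538, 0.0413 and 0.0435 in Control, about 1 fragment in each library, 0.158, 0.361 and 0.616 in TAA and 0.0401, 0.0506 and 0.0684 in Recovery. Its TAA values spread widely but lay above all others, with log2 fold changes of 1.59 (SE 0.37, adjusted p = 0.0087) and -1.53 (SE 0.38, adjusted p = 0.011), both lost with quantile normalization, which gave 0.62 and -0.78. Ccl8 was not called and was highest in 2 Recovery libraries, at 0, 0.434 and 0.642, and was called in Recovery against TAA without Recovery replicate 1 (1.49), and Ccl12 was below the minimum.

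Other inflammatory CC ligands behaved unequally. Ccl5, which attracts T cells and monocytes, measured 0.548, 0.629 and 0.523 in Control, 2.69, 1.4 and 1.85 in TAA and 0.45, 1.47 and 2.2 in Recovery. It rose in TAA by 1.60 on the log2 scale (SE 0.24, adjusted p = 0.0011). In Recovery 1 mouse was below the Control values and the other 2 were within the TAA range, so the difference from TAA did not pass (adjusted p = 0.29), nor did the difference from Control (adjusted p = 0.33). Ccl9, the second most abundant of the member ligands by group mean, measured 12.9, 10.2 and 10.5 in Control, 8, 26.2 and 5.59 in TAA and 12.2, 11.5 and 8.75 in Recovery. TAA replicate 2 was above all other libraries and the other 2 TAA libraries were below all Control values, so no comparison passed and the 95% interval in TAA against Control ran from -1.25 to 1.09. In these 2 libraries Ccl6 was above Ccl9. Ccl6, the third most abundant by group mean, measured 1.86, 7.66 and 7.48 in Control, 8.59, 7.9 and 8.76 in TAA and 2.63, 5.54 and 4.85 in Recovery, with 1 low Control and 1 low Recovery library. It was not called in TAA (adjusted p = 0.2), and was lower in Recovery than in TAA, at -1.01 (SE 0.25, adjusted p = 0.012), a value at the 2-fold limit that became -0.69 without Recovery replicate 1, -0.99 without TAA replicate 1 and -0.98 without TAA replicate 3. With all 9 libraries in 1 fit it was the same and not called (adjusted p = 0.11), and with FPKM as deposited the difference in TAA was called (1.43). Ccl4 was called lower in Recovery against TAA (-1.27, SE 0.44, adjusted p = 0.043) on 19, 11 and 7 estimated fragments in TAA and 3, 0 and 3 in Recovery. Its call was lost without TAA replicate 1 (-0.97), without TAA replicate 2 (-1.30), without Recovery replicate 2 (-0.84) and with quantile normalization (-0.51), as well as with all 9 libraries in 1 fit (adjusted p = 0.066). It was also lost without the minimum (adjusted p = 0.071) and with 0.01 in place of the added 0.1 (-2.46, adjusted p = 0.089). In TAA against Control it was not called, but was with FPKM as deposited (1.53) and without Control replicate 1 (1.45). Ccl3 was below the minimum.

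Of the Ccr4 ligands, which attract regulatory and type 2 helper T cells, Ccl22 measured 0, 0 and 0.0315 in Control, 0.4, 0.229 and 0.213 in TAA and 0, 0.0812 and 0.105 in Recovery. It was listed at 0 in 2 Control libraries and 1 Recovery library and was above 0.2 in each TAA mouse. Its log2 fold changes were 1.76 (SE 0.28, adjusted p = 0.0015) and -1.26 (SE 0.35, adjusted p = 0.018), and the second was lost without TAA replicate 1 (-1.05, adjusted p = 0.063) and without Recovery replicate 1 (-0.95). With quantile normalization they were 0.87 and -0.52, under the 2-fold limit. With 0.01 in place of the added 0.1, the second was -2.57 and not called (adjusted p = 0.051). Ccl17, the other Ccr4 ligand, ranged from 0 to 0.349 with all groups overlapping and was not called. Ccl24, an eosinophil attractant, was not called, at 0.244, 0.541 and 0.583 in Control, 0.685, 0.841 and 0.834 in TAA and 0.836, 1.42 and 0.822 in Recovery, although FPKM as deposited gave a call in TAA against Control (1.28), while Ccl11 was below the minimum and Ccl26 was listed at 0.

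None of the 4 tested rows of the mostly homeostatic CC ligands was called in any comparison, and 12 of the 16 rows in this group were below the minimum. Ccl25, a ligand of Ccr9, measured 2.78, 2.31 and 2.65 in Control and 3.48, 3.65 and 3.6 in TAA, and Ccl27a, a skin-homing ligand, measured 3.38, 3.64 and 4.52 and 2.29, 1.92 and 2.49. Both differed between Control and TAA at an adjusted p of 0.014 and 0.0054 but by less than 2-fold, at 0.46 and -0.75 on the log2 scale. Ccl25 was called with FPKM as deposited (1.08) and Ccl27a with quantile normalization (-1.02). The exons of Ccl25 overlap Elavl1 on the opposite strand by 204 bases, and no strand-specific counting is stated, so fragments of the 2 genes cannot be told apart there. Ccl21a, the lymphatic ligand of Ccr7, stands in the table as a chromosome copy at 0, 0 and 0.162 in Control, 0.0332, 0 and 0 in TAA and 0, 0.504 and 0.187 in Recovery, and as a scaffold copy at 0, 0 and 0.366 in Control, 0.0284, 0.0972 and 0.46 in TAA and 0, 0.67 and 0.202 in Recovery. How fragments that match both near-identical copies were assigned is not stated, so their levels are uncertain. Ccl20, the ligand of Ccr6, was at 0 outside the TAA group and measured 0.0481, 0.0498 and 0 in TAA, or 4, 4 and 0 estimated fragments.

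The neutrophil-attracting CXC ligands, which act on Cxcr2, include 3 tested members. Cxcl5 measured 0.0473, 0 and 0.0187 in Control, 0.547, 0.431 and 0.42 in TAA and 0.0166, 0.0149 and 0.0873 in Recovery. The TAA mice were above 0.4 and all others below 0.1, with log2 fold changes of 2.23 (SE 0.25, adjusted p = 0.00024) and -2.05 (SE 0.28, adjusted p = 0.00063). Cxcl2 measured 0.0656, 0.016 and 0 in Control, 0.282, 0.321 and 0.185 in TAA and 0.0577, 0.0883 and 0.193 in Recovery, and rose in TAA by 1.53 (SE 0.29, adjusted p = 0.0034), or 0.58 with quantile normalization. Its Recovery and TAA ranges overlapped (adjusted p = 0.062), and a difference was called with FPKM as deposited (-1.18) and without Recovery replicate 3 (-1.06). Cxcl1, the most abundant of them, measured 2.51, 2.52 and 3.73 in Control, 5.45, 5.67 and 6.33 in TAA and 1.8, 1.09 and 0.859 in Recovery. The 3 groups did not overlap, with TAA highest and Recovery lowest. The rise in TAA was 0.99 (SE 0.17, adjusted p = 0.0021), just under the 2-fold limit, and passed it with FPKM as deposited (1.62), without Control replicate 3 (1.18), without TAA replicate 1 (1.04) and without TAA replicate 2 (1.01). The fall in Recovery against TAA was called, at -2.19 (SE 0.24, adjusted p = 0.00024). Recovery against Control was -1.20 with an adjusted p of 0.082, which did not pass. Fitted with all 9 libraries together, the adjusted p was 0.026, and Cxcl1 was then the 1 member called in that comparison. Cxcl3 and Cxcl15 were below the minimum, and Cxcl3 measured 0.0809, 0.0392 and 0.0681 in TAA and 0 in the other 6 libraries.

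**Figure D3:**
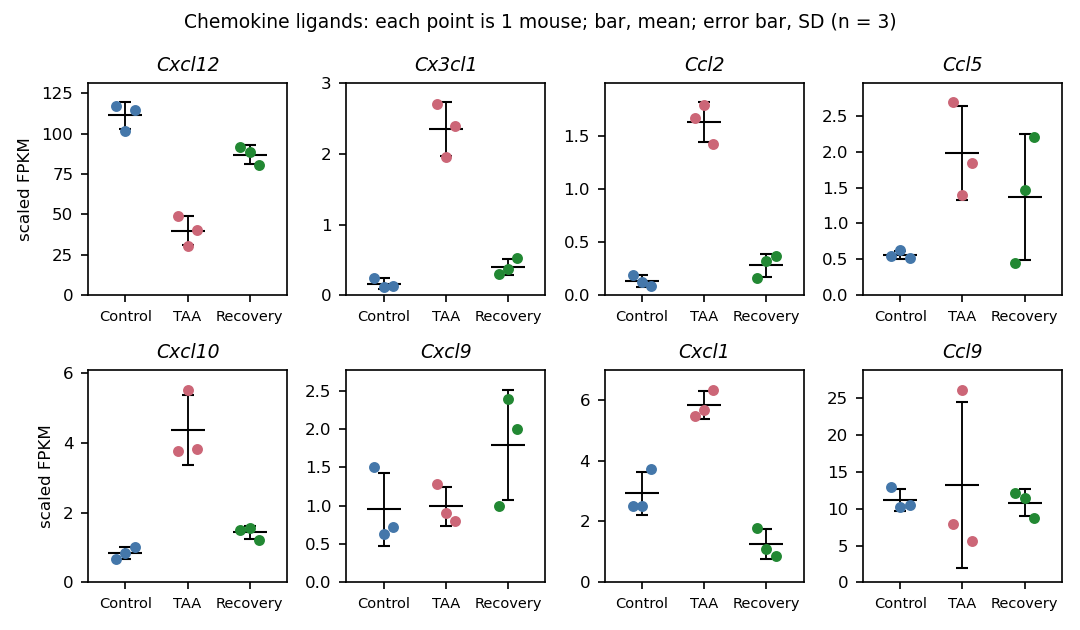
Scaled FPKM of 8 ligands, with 1 point per mouse, a bar at the group mean and an error bar of 1 SD (n = 3). Cxcl12 is the 1 panel in which all TAA points lie under both other groups, Cxcl1 is lowest in Recovery, and Ccl9 has a single TAA point at 26.2.

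Promoter sequence of Cxcl1, Cxcl2, Cxcl9 and Cxcl10 is shown because these genes lie on chromosome 5 as neighbouring pairs, and within the pair of Cxcl9 and Cxcl10 only the latter was called. Sequences are from the RefSeq promoter table of GRCm38.p6, which matched 42 members, and run 5′ to 3′ in the direction of transcription. Capitals mark matches on either strand to a kappaB form, GGGNNTTNCC, or to an interferon response form, GAAANNGAAA, in the 250 bases before the start; both forms were chosen after the promoters of Cxcl1 and Cxcl10 had been seen.
Cxcl1 promoter, chr5:90891125-90891244, plus strand: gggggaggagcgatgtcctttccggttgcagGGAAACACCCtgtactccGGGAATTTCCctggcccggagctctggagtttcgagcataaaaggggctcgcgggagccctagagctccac
Cxcl2 promoter, chr5:90903779-90903898, plus strand: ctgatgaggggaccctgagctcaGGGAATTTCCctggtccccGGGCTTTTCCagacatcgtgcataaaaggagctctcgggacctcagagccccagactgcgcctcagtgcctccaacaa
Cxcl9 promoter, chr5:92328100-92328219, minus strand: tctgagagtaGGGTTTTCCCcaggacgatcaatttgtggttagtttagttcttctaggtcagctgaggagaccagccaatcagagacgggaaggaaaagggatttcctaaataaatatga
Cxcl10 promoter, chr5:92348973-92349112, minus strand: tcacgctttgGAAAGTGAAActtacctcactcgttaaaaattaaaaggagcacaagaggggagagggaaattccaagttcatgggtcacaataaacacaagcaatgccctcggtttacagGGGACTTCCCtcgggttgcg
Cxcl1 held 2 matches to the kappaB form, at positions -89 and -71 from the start, and Cxcl2 held 2, at -97 and -78. Cxcl9 held 1, at -130, while Cxcl10 held 1, at -103, and 1 match to the interferon response form, at -213. The kappaB form was found in 9 of 42 members (21.4%) and in 4.11% of all 32851 promoters, and the interferon response form in 3 of 42 (7.14%) and in 2.98%. A match describes letters in this window and was not tested against the expression values.

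The Cxcr3 ligands are induced by interferon and attract activated T and NK cells, and the 3 of them differed from one another. Cxcl10 measured 0.672, 0.831 and 1.01 in Control, 3.76, 5.52 and 3.83 in TAA and 1.51, 1.56 and 1.22 in Recovery. The 3 groups did not overlap, with TAA highest and Control lowest, and 133 bases of its exons overlap Art3 on the opposite strand. The log2 fold change was 2.25 (SE 0.21, adjusted p = 0.0001) in TAA against Control and -1.53 (SE 0.18, adjusted p = 0.00038) in Recovery against TAA, and Recovery against Control did not pass (adjusted p = 0.097). Cxcl9, its neighbour, measured 1.5, 0.636 and 0.727 in Control, 1.28, 0.905 and 0.794 in TAA and 1, 2.39 and 2 in Recovery. These ranges overlapped in each comparison, and the 95% interval for TAA against Control ran from -0.64 to 0.87. In Recovery against TAA, Cxcl9 was called with quantile normalization (1.32) and without Recovery replicate 1 (1.09). Cxcl11 lay between 0.204 and 0.392 in all 9 libraries, though 1582 bases of its exons overlap Gm2673 on the opposite strand. It was called with quantile normalization, at -1.19 in TAA against Control and 1.08 in Recovery against TAA. The ratio of Cxcl10 to Cxcl9, which does not depend on the scaling and was chosen after the values had been seen, was 0.449, 1.31 and 1.39 in Control, 2.93, 6.1 and 4.82 in TAA and 1.51, 0.654 and 0.61 in Recovery. Each TAA mouse was above all others in this ratio, and Control and Recovery overlapped.

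Cxcl12, the ligand of Cxcr4 and the most abundant member in each group, went the other way. It measured 117, 102 and 115 scaled FPKM in Control, 48.8, 30.6 and 40.3 in TAA and 92, 88.4 and 80.6 in Recovery. The groups did not overlap, with TAA lowest and Recovery between TAA and Control. It fell by 1.51 in TAA (SE 0.17, adjusted p = 0.00024) and was higher in Recovery than in TAA by 1.15 (SE 0.16, adjusted p = 0.00081), and Recovery against Control did not pass (-0.36, adjusted p = 0.079). With FPKM as deposited it was -0.87 and 0.59 and with quantile normalization -0.92 and 0.65, in the same directions with adjusted p between 0.0019 and 0.018 but under the 2-fold limit, and without TAA replicate 2 the second value was 0.97. As a share of the summed FPKM of all ligands, which the scaling does not touch, Cxcl12 made up 78.5%, 75.2% and 75.4% in Control, 47.7%, 31.3% and 45.3% in TAA and 73.4%, 69.9% and 67.6% in Recovery. The lowest share, in TAA replicate 2, coincided with the high Ccl9 value of that library. Summed without Cxcl12, ligands measured 32, 33.8 and 37.7 in Control, 53.6, 67.2 and 48.7 in TAA and 33.4, 38.1 and 38.7 in Recovery.

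Of the other CXC ligands, Cxcl14, which is expressed by epithelia and stroma, measured 0.654, 0.58 and 0.858 in Control, 3.86, 2.82 and 3.99 in TAA and 1.13, 0.854 and 0.695 in Recovery. TAA was above both other groups, with log2 fold changes of 2.2 (SE 0.20, adjusted p = 9.7e-05) and -1.89 (SE 0.21, adjusted p = 0.00026). Cxcl16, a membrane-bound ligand of Cxcr6, measured 2.8, 2.16 and 2.4 in Control, 4.62, 3.53 and 3.1 in TAA and 1.68, 2.4 and 2.73 in Recovery. Its TAA values were the highest, but the differences of 0.58 and -0.71 were under 2-fold (both adjusted p = 0.026) and were called only with FPKM as deposited, at 1.20 and -1.25. Its exons overlap Zmynd15 on the opposite strand by 552 bases. Cxcl13, the B cell attractant that acts on Cxcr5, measured 0.393, 1.01 and 0.917 in Control, 0.751, 0.194 and 0.23 in TAA and 1.21, 0.753 and 5.91 in Recovery. Its call in Recovery against TAA (2.12, SE 0.72, adjusted p = 0.041) rested on Recovery replicate 3, without which it was 1.28 (adjusted p = 0.068), and was also lost without TAA replicate 2 (1.83), TAA replicate 3 (1.92) or Recovery replicate 1 (2.38) and with FPKM as deposited (1.66, adjusted p = 0.074), without the trend (adjusted p = 0.06) and without the minimum (adjusted p = 0.088). In TAA against Control it was called with quantile normalization (-1.74) and without TAA replicate 1 (-1.40).

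The CX3C and C ligands both rose in TAA. Cx3cl1, or fractalkine, a membrane-anchored ligand of endothelium and epithelium, showed the largest log2 fold change of the tested members in TAA against Control with the 0.1 added. Without it the ratio of means was 14.2, below those of Ccl22 (26.7), Cxcl5 (21.2) and Cxcr2 (15.7), which have lower levels. With 0.01 added Cxcl5 and Ccl22 were above Cx3cl1, and with 1 added Ccr2 and Cxcl10 were. It measured 0.249, 0.119 and 0.126 in Control, 2.71, 1.95 and 2.39 in TAA and 0.304, 0.373 and 0.53 in Recovery. The 3 groups did not overlap, with TAA far above and Recovery just above Control. The log2 fold change was 3.23 (SE 0.24, adjusted p = 4.1e-05) in TAA and -2.30 (SE 0.22, adjusted p = 0.00012) in Recovery against TAA, while Recovery against Control did not pass (0.93, adjusted p = 0.11). Xcl1, the ligand of the dendritic cell receptor Xcr1, rose in TAA by 1.21 (SE 0.31, adjusted p = 0.012) on 7, 4 and 8 estimated fragments against 0, 1 and 1 in Control. Its exons overlap Gm20743 on the opposite strand by 98 of 523 bases. Without Control replicate 1 the value was 0.98 and with quantile normalization 0.28, under the 2-fold limit. It was not lower in Recovery than in TAA by this test (adjusted p = 0.59), with values of 0.251, 0.153 and 0.271 in TAA and 0.196, 0.262 and 0.102 in Recovery.

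Among receptors, 6 of 12 tested members rose in TAA, 0 fell, and 4 were lower in Recovery than in TAA, beside 17%, 8.02% and 14.3% of all tested genes. Of these 12, Cxcr2 and Ccr6 passed the minimum only through their TAA values, and the other 7 receptors were not tested. Ccr2, the receptor of inflammatory monocytes, measured 0.64, 0.432 and 0.555 in Control, 4.12, 3.61 and 3.67 in TAA and 0.438, 0.708 and 0.755 in Recovery. All TAA mice were above 3.6 and all others below 0.8. Among the member receptors, Ccr2 went from the fourth most abundant in Control to the most abundant in TAA. The log2 fold change was 2.61 (SE 0.17, adjusted p = 2.3e-05), and -2.44 (SE 0.20, adjusted p = 6.4e-05) in Recovery against TAA. As a share of the summed FPKM of all receptors, Ccr2 made up 15.2%, 8.56% and 11.2% in Control, 30.3%, 29.8% and 28.2% in TAA and 9.98%, 11.5% and 10.9% in Recovery.

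Cxcr4, the receptor of Cxcl12, measured 0.841, 0.973 and 0.575 in Control, 3.3, 2.47 and 2.86 in TAA and 1.22, 1.22 and 1.46 in Recovery. The 3 groups did not overlap, with TAA highest and Recovery between. It rose in TAA by 1.75 (SE 0.21, adjusted p = 0.00036), opposite to its ligand, and was lower in Recovery than in TAA at -1.08 (SE 0.16, adjusted p = 0.00089), which became -0.98 without TAA replicate 1 and -0.83 with quantile normalization. The ratio of Cxcl12 to Cxcr4 FPKM was 139, 105 and 200 in Control, 14.8, 12.4 and 14.1 in TAA and 75.2, 72.7 and 55.1 in Recovery. Like the other ratios it is free of the scaling and was chosen after the values had been seen, and the 3 groups did not overlap in it.

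Cxcr2, the neutrophil receptor, measured 0.0148, 0.0271 and 0.0629 in Control, 0.426, 0.604 and 0.618 in TAA and 0.0527, 0.0727 and 0.0449 in Recovery, or 68, 95 and 100 estimated fragments in TAA and at most 8 in any other library. The TAA mice stood apart, with log2 fold changes of 2.27 (SE 0.25, adjusted p = 0.00023) and -2.04 (SE 0.23, adjusted p = 0.00028). Ccr1, carried by monocytes and neutrophils, measured 0.239, 0.155 and 0.0739 in Control, 0.735, 0.604 and 0.804 in TAA and 0.0678, 0.0587 and 0.0773 in Recovery. TAA was again above all others and Recovery overlapped the lowest Control value, with log2 fold changes of 1.71 (SE 0.28, adjusted p = 0.0016) and -2.27 (SE 0.21, adjusted p = 0.0001). With quantile normalization the rise of Ccr1 in TAA was 0.78, under the 2-fold limit.

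Cx3cr1, the fractalkine receptor of monocytes and resident macrophages, measured 0.289, 0.248 and 0.31 in Control, 0.834, 0.83 and 0.731 in TAA and 0.366, 0.509 and 0.562 in Recovery. The 3 groups did not overlap and Recovery lay between the others. It rose in TAA by 1.23 (SE 0.18, adjusted p = 0.00087), or 0.35 with quantile normalization, and 78 bases of its exons overlap Gm33858 on the opposite strand. Recovery against TAA was -0.65 (SE 0.20, adjusted p = 0.027), under 2-fold, and was -1.14 and called with FPKM as deposited and 0.06 with quantile normalization. Ccr7, which guides dendritic cells and naive T cells, measured 0.0683, 0.225 and 0.123 in Control, 0.35, 0.439 and 0.443 in TAA and 0.162, 0.392 and 0.277 in Recovery. It rose in TAA by 1.14 (SE 0.28, adjusted p = 0.011), a call lost without Control replicate 1 (0.92) and with quantile normalization (0.18), and Recovery overlapped both groups.

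Other receptors of lymphocytes did not pass. Cxcr6, the receptor of Cxcl16 on NK and T cells and the most abundant of the member receptors in Control, measured 0.921, 1.1 and 1.38 in Control, 0.94, 0.844 and 0.66 in TAA and 0.83, 1.36 and 1.48 in Recovery. The ranges overlapped, with a 95% interval of -0.91 to 0.06 in TAA against Control. With quantile normalization Cxcr6 was called lower in TAA (-1.15) and higher in Recovery than in TAA (1.16). Its share of summed receptor FPKM was 21.9%, 21.7% and 27.9% in Control, 6.91%, 6.98% and 5.08% in TAA and 18.9%, 22.2% and 21.4% in Recovery. The summed receptors themselves measured 4.21, 5.04 and 4.97 in Control, 13.6, 12.1 and 13 in TAA and 4.39, 6.15 and 6.94 in Recovery. The lower share in TAA therefore goes with a larger sum, while the levels of Cxcr6 overlapped. Cxcr3, the receptor of Cxcl9 and Cxcl10, measured 0.261, 0.32 and 0.318 in Control, 0.281, 0.373 and 0.552 in TAA and 0.202, 0.382 and 0.482 in Recovery, with a 95% interval of -0.28 to 0.88 in TAA against Control. Ccr6, the receptor of Ccl20, measured 0.0515, 0.191 and 0.0398 in Control, 0.223, 0.0389 and 0.316 in TAA and 0, 0.06 and 0.0975 in Recovery, and all groups overlapped, though without TAA replicate 2 it was called in Recovery against TAA (-1.32). Ccr9 and Cxcr5 were not called, although Ccr9, whose exons overlap other genes, was with FPKM as deposited in TAA against Control (1.15), and Ccr1l1, Ccr3, Ccr4, Ccr8, Ccr10, Cxcr1 and Xcr1 were below the minimum.

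**Figure D4:**
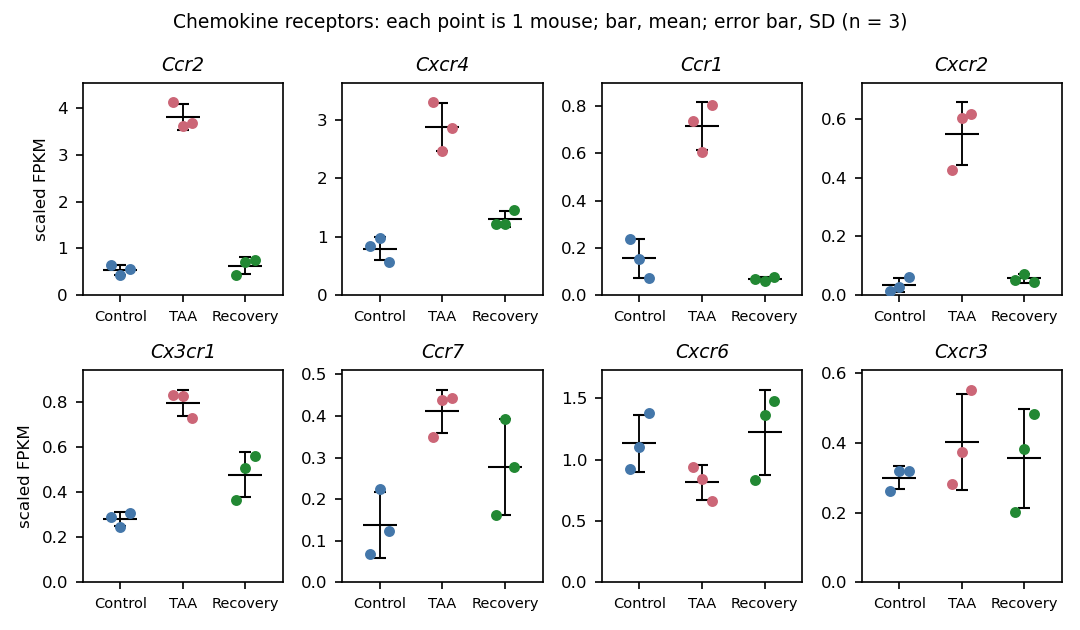
Scaled FPKM of 8 receptors, with 1 point per mouse, a bar at the group mean and an error bar of 1 SD (n = 3). TAA points lie above both other groups for Ccr2, Cxcr4, Ccr1, Cxcr2 and Cx3cr1, the TAA and Recovery points overlap for Ccr7, and the groups overlap for Cxcr6 and Cxcr3.

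Set beside each other, ligand and receptor both rose in TAA on the pairs Ccl2 with Ccr2, Cxcl5 with Cxcr2 and Cx3cl1 with Cx3cr1. Both Cxcl5 and Cxcr2 passed the minimum only through their TAA values, so their joint rise is no independent observation. This pair was added to the planned ones, which hold Cxcl1 with Cxcr2. On the pair Cxcl12 with Cxcr4 the ligand fell and the receptor rose. On the pair Cxcl10 with Cxcr3 the ligand rose and the receptor was not called, and on the pairs Ccl21a with Ccr7 and Cxcl1 with Cxcr2 the receptor rose and the ligand was not called. On Cxcl16 with Cxcr6 neither was called, and on Ccl20 with Ccr6 the ligand was below the minimum and the receptor was not called.

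Many members lie next to each other in GRCm38, the build of the table. Taking members at most 300 kb apart as neighbours, the receptor cluster chr9:123678096-124147699 held Ccr1 and Ccr2, which rose in TAA, and Cxcr6 and Ccr9, which were not called. The CC ligand cluster chr11:82035571-82305690 held 6 members, of which 3 were tested and 2, Ccl2 and Ccl7, rose. The neighbouring cluster chr11:83525778-83664683 held 5, of which 4 were tested and 1, Ccl5, rose. On chr5:90759360-90905938, Cxcl2 and Cxcl5 rose among 3 tested of 5, and on chr5:92321347-92365485 Cxcl10 alone rose among Cxcl9, Cxcl10 and Cxcl11. On chr8:94745590-94812036, Ccl22 and Cx3cl1 rose and Ccl17, which lies beside them, was not called. No cluster held a member that fell in TAA, and Cxcl12 lies apart from other members. Among all tested genes, 17% rose and 8.02% fell in TAA. Of the members counted here, Ccl7, Cxcl5 and Ccl22 passed the minimum only through their TAA values, so these counts are no evidence about whole clusters.

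Genes that act with chemokines were read from lists of fixed membership, with the median log2 fold change over all tested genes being 0.02 in TAA against Control and -0.01 in Recovery against TAA. Of 10 atypical receptors and chemokines outside the symbol rule, 4 rose and 1 fell in TAA, or 40% and 10% beside 17% and 8.02% of all tested genes, while 1 was higher and 2 were lower in Recovery than in TAA, or 10% and 20% beside 7.12% and 14.3% of all tested genes. The median log2 fold changes were 0.22 and 0.10. Ackr4, a scavenging receptor of Ccl19, Ccl21 and Ccl25, fell by 2.15 in TAA (SE 0.13, adjusted p = 1.5e-05) and was higher in Recovery than in TAA, at 1.72 (SE 0.14, adjusted p = 5.8e-05). Ackr3, which scavenges Cxcl12, rose by 2.03 in TAA (SE 0.24, adjusted p = 0.00036) and was lower in Recovery, at -1.91 (SE 0.21, adjusted p = 0.00024). Pf4, the platelet chemokine Cxcl4, rose by 2.13 (SE 0.47, adjusted p = 0.0063) and was lower in Recovery, at -1.98 (SE 0.28, adjusted p = 0.00082). The list summed to 91.9, 105 and 102 scaled FPKM in Control, 91.2, 86.8 and 108 in TAA and 147, 160 and 131 in Recovery, with Mif as its most abundant gene.

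Of 45 tested genes of chemokine receptor signalling, 7 rose and 3 fell in TAA, or 15.6% and 6.67% beside 17% and 8.02% of all tested genes, and 2 were higher and 3 lower in Recovery than in TAA, or 4.44% and 6.67% beside 7.12% and 14.3% of all tested genes. The median log2 fold changes were 0.40 and -0.35. Elmo1, which links receptors to Rac, rose by 1.74 (SE 0.19, adjusted p = 0.00022), while Gnai1, a G protein alpha subunit, fell by 1.93 (SE 0.14, adjusted p = 3.6e-05) and Rgs16, which switches off G proteins, fell by 2.83 (SE 0.31, adjusted p = 0.00023). After withdrawal Rgs1 and Rgs16 were higher than in TAA, at 1.35 and 1.31, and Elmo1 was lower, at -1.32. The sums were 486, 493 and 477 in Control, 566, 542 and 526 in TAA and 464, 440 and 474 in Recovery, with Cdc42 the most abundant.

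Of 24 tested inducers of chemokine transcription, 4 rose and 0 fell in TAA, or 16.7% and 0% beside 17% and 8.02% of all tested genes, and 1 was higher and 4 lower in Recovery than in TAA, or 4.17% and 16.7% beside 7.12% and 14.3% of all tested genes. The median log2 fold changes were 0.36 and -0.26. Ltb, which encodes lymphotoxin beta, rose by 2.11 (SE 0.26, adjusted p = 0.00038), Relb of the NF-kappaB family by 1.95 (SE 0.22, adjusted p = 0.00026) and Tlr2 by 1.43 (SE 0.16, adjusted p = 0.00025), whereas Il13 and Il17a were listed at 0. Ltb and Tnf were lower in Recovery than in TAA, at -1.71 (SE 0.28, adjusted p = 0.0016) and -1.29 (SE 0.24, adjusted p = 0.003), and Il1b was higher, at 1.41 (SE 0.27, adjusted p = 0.0034). The sums were 299, 331 and 292 in Control, 254, 258 and 299 in TAA and 344, 312 and 304 in Recovery, with Cebpb the most abundant.

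Of 14 tested genes of chemokine cleavage and glycosaminoglycan presentation, 4 rose and 3 fell in TAA, or 28.6% and 21.4% beside 17% and 8.02% of all tested genes, and 2 were higher and 3 lower in Recovery than in TAA, or 14.3% and 21.4% beside 7.12% and 14.3% of all tested genes. The median log2 fold changes were 0.31 and 0.10. Mmp12, a macrophage metalloproteinase that cleaves chemokines, rose by 4.02 (SE 0.44, adjusted p = 0.00023), Gpc3, a heparan sulfate proteoglycan, by 4.86 (SE 0.20, adjusted p = 4.1e-06) and Mmp9 by 1.34 (SE 0.25, adjusted p = 0.0032). All 3 were lower in Recovery than in TAA, at -3.16, -4.58 and -1.41. Dpp4, also of this list, went the other way, at -1.21 in TAA against Control (SE 0.12, adjusted p = 0.00012) and 1.06 in Recovery against TAA. Sdc4, the most abundant gene of the list, fell by 1.31 in TAA (SE 0.08, adjusted p = 1.9e-05), and the list summed to 517, 522 and 543 in Control, 332, 317 and 308 in TAA and 489, 476 and 467 in Recovery. In Recovery against Control, limma called 0 genes of these 4 lists.

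Marker genes of liver and blood cell types are given as values beside the chemokine results, and their part in those results was not tested. Among all tested genes, 17% rose and 8.02% fell in TAA, and 7.12% were higher and 14.3% lower in Recovery than in TAA. Of 14 monocyte and scar macrophage markers, 10 rose and 0 fell in TAA, and 11 were lower in Recovery than in TAA, with medians of 1.77 and -1.36. Their summed level was 129, 83.4 and 84.5 scaled FPKM in Control, 665, 476 and 503 in TAA and 98.7, 107 and 142 in Recovery. Spp1, the most abundant of them in TAA, which cholangiocytes express too, rose by 4.31 (SE 0.18, adjusted p = 4.2e-06), ahead of Chil3 at 2.17 and Plac8 at 2.13. In each Control and Recovery library Lyz2 was above Spp1. Control replicate 1 stood apart from the other Controls, with Gpnmb at 22.2 against 0.188 and 0.102 and Trem2 at 7.1 against 0.302 and 0.389, and it held the lowest Kupffer, sinusoidal endothelium and stellate sums of its group. Without that library 16 members were called in TAA against Control. Of 12 neutrophil markers, 8 were tested and rose, 3 of which (Camp, Ltf and Mmp8) passed the minimum only through their TAA values. They were led by S100a8, the most abundant, at 3.0 (SE 0.64, adjusted p = 0.0055), S100a9 at 2.53 and Ltf at 1.95, and 7 were lower in Recovery than in TAA. Neutrophil marker sums were 1.82, 5 and 5.14 in Control, 19.8, 18.1 and 25.3 in TAA and 3.91, 5.94 and 5.51 in Recovery. Of 9 dendritic cell markers, 5 rose in TAA, led by Itgax at 2.64, Flt3 at 2.2 and Cd209a at 1.98, and 3 were lower in Recovery than in TAA. The sums were 5.71, 6 and 4.41 in Control, 9.29, 8.57 and 10.3 in TAA and 5.48, 5.99 and 5.81 in Recovery. Zbtb46 was the most abundant by group mean in Control and Recovery, and Itgax in TAA. Zbtb46 itself was at -0.44 in TAA against Control (SE 0.12, adjusted p = 0.017), under 2-fold and opposite in sign to the markers that rose.

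Of 12 Kupffer cell markers, Marco, C1qb and C1qa rose in TAA, at 2.04, 1.19 and 1.09, and Timd4 was higher in Recovery than in TAA, at 1.23. The Kupffer sums were 140, 265 and 268 in Control, 299, 263 and 276 in TAA and 326, 342 and 399 in Recovery. Slc40a1 was the most abundant by group mean in Control and TAA, and Cd5l in Recovery. Of 15 tested T and NK cell markers, Cd8b1 and Cd8a rose in TAA, at 1.24 and 1.03, and Gzmb was higher in Recovery than in TAA, at 1.30. Their sums were 2.53, 3.95 and 4.23 in Control, 5.65, 5.29 and 4.78 in TAA and 2.76, 5.43 and 6.19 in Recovery. Nkg7 was the most abundant by group mean in TAA and Recovery, and Cd3e in Control. Control replicate 1 and Recovery replicate 1 held the lowest sums of T and NK cell markers in their groups, and also the lowest Ccl6 values. The same libraries were lowest in their groups in the Kupffer, neutrophil, B and plasma cell, sinusoidal endothelium and stellate sums too. Of 9 B and plasma cell markers, Jchain, the most abundant, and Cr2 rose in TAA, at 1.33 and 1.08, and Cr2 was lower in Recovery than in TAA, at -1.38. B and plasma cell sums were 3.11, 6.28 and 4.63 in Control, 8.26, 8.15 and 12.1 in TAA and 2.8, 5.59 and 7.24 in Recovery. The highest Recovery sum stood in replicate 3, as did the highest Cxcl13 value. That library was also highest of its group in the Kupffer, T and NK cell, sinusoidal endothelium and stellate sums. Between groups, B and plasma cell sums were highest in TAA, where the mean of Cxcl13 was lowest.

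Among structural cells, 7 of 8 tested cholangiocyte markers rose in TAA and 6 were lower in Recovery than in TAA, 1 of which, Cftr, passed the minimum only through its TAA values, with sums of 6.14, 5.09 and 7.33 in Control, 48.3, 44.6 and 43.3 in TAA and 10, 12.2 and 13 in Recovery. Cldn4 rose by 5.93 (SE 0.24, adjusted p = 4e-06), Prom1 by 4.67 and Epcam by 4.21, and Epcam was the 1 gene of all marker lists called in Recovery against Control, at 1.65 (SE 0.25, adjusted p = 0.031). Of 12 stellate cell and myofibroblast markers, 10 rose, led by Col1a1 at 5.91, Col3a1 at 4.95 and Col1a2 at 4.54, and 8 were lower in Recovery than in TAA. Stellate sums were 74, 115 and 124 in Control, 474, 340 and 464 in TAA and 110, 145 and 151 in Recovery, with Dcn the most abundant. Limma called 0 of 10 sinusoidal endothelium markers in each comparison, and their sums were 85.6, 151 and 134 in Control, 126, 97.3 and 112 in TAA and 138, 142 and 156 in Recovery, with Clec4g the most abundant. Of 6 lymphatic endothelium markers, Pdpn rose by 1.59 (SE 0.39, adjusted p = 0.0099) and Prox1, which hepatocytes express too, fell by 1.25 (SE 0.19, adjusted p = 0.001). Lymphatic sums were 39, 50.8 and 51.8 in Control, 58.1, 60.1 and 56 in TAA and 42.4, 48.5 and 44.9 in Recovery, with Reln the most abundant.

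**Figure D5:**
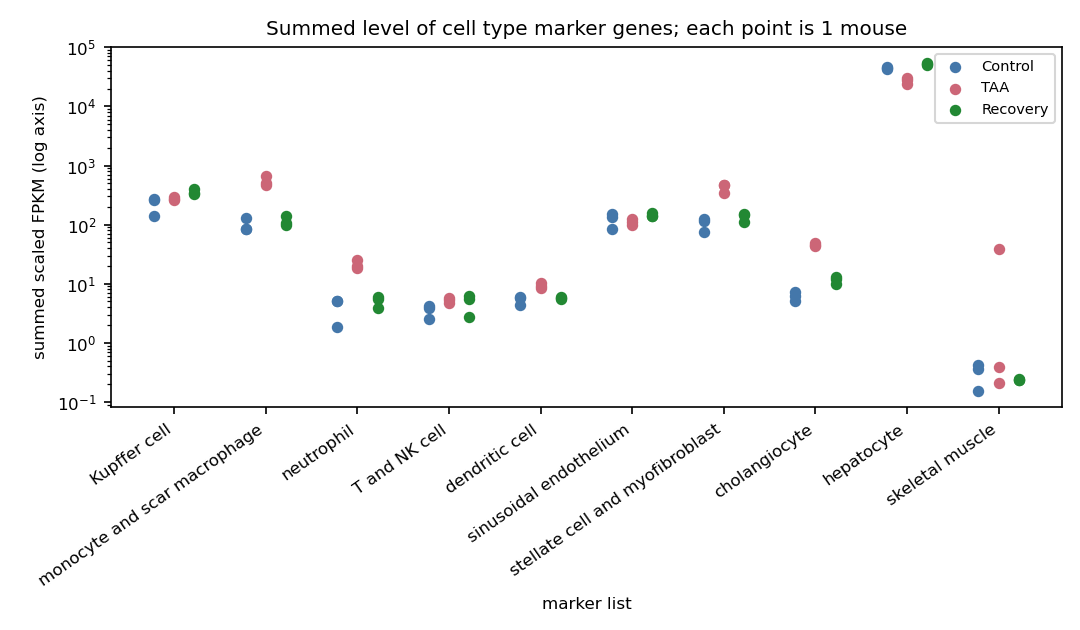
Summed scaled FPKM of 10 cell type marker lists on a log axis, with 1 point per mouse. Monocyte and scar macrophage, neutrophil, dendritic cell, stellate cell and cholangiocyte sums are highest in the TAA mice, hepatocyte sums are lowest there, and the skeletal muscle sum of 39.1 belongs to TAA replicate 3.

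Hepatocyte markers moved the other way, with 4 of 9 tested falling in TAA and 4 higher in Recovery than in TAA. Cyp2e1 was at -3.65 in TAA against Control (SE 0.14, adjusted p = 3.6e-06), Apoa1 at -1.55 and Apob at -1.26, and the sums, mostly Alb, were 44500, 47000 and 42500 in Control, 30800, 27700 and 23500 in TAA and 50600, 52800 and 53500 in Recovery. In TAA replicate 3 the 7 skeletal muscle markers summed to 39.1, mostly Acta1, against at most 0.426 in any other library, and 6 of them passed the minimum only through TAA. Without that library 17 members were called in TAA against Control and 14 in Recovery against TAA. Siglecf, the 1 tested marker of mast cells and eosinophils, which passed the minimum only through its TAA values, rose by 1.25 in TAA (SE 0.24, adjusted p = 0.0032) and was lower in Recovery, at -1.42, on list sums of 0.068, 0.292 and 0.0897 in Control, 0.399, 0.345 and 0.815 in TAA and 0.049, 0.0532 and 0.0798 in Recovery, and Tpsb2 was listed at 0. Neither of the 2 tested platelet markers was called, with sums of 1.2, 1.41 and 1.13 in Control, 0.975, 1.16 and 1.68 in TAA and 1.08, 1.08 and 1.21 in Recovery, mostly Itga2b. The 1 tested pancreas marker, Cela1, was not called either, with Pnlip and Try4 listed at 0 and list sums of 5.98, 6.65 and 6 in Control, 5.46, 5.34 and 6.06 in TAA and 6.57, 5.88 and 5.79 in Recovery. Plin4, the 1 tested fat marker, fell by 2.43 in TAA (SE 0.26, adjusted p = 0.00022) and was higher in Recovery than in TAA, at 2.88, with list sums of 6.5, 5.55 and 3.86 in Control, 0.656, 0.875 and 1.23 in TAA and 7.25, 7.06 and 7.22 in Recovery and Lep listed at 0.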

How the data were processed

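The authors prepared NEBNext Ultra libraries, mapped them to mm10 (GRCm38) with HISAT2 2.2.1 and counted fragments per gene with featureCounts 1.5.0-p3. They deposited FPKM values for 21873 genes, and the gene annotation release is not given in the sources used here. FPKM values were divided by median-of-ratios factors from the 14005 genes above 0 in all 9 libraries. Genes with a mean of at least 0.1 FPKM were tested on log2(scaled FPKM + 0.1) in limma 3.58.1 (lmFit, eBayes with trend, R 4.3.3) with the 6 libraries of each comparison, with Benjamini-Hochberg adjustment across every tested gene. Each p-value sets a group difference against the spread between these mice, which limma moderates over all tested genes. The procedure was tested on simulated data. Depth was estimated with exon lengths from GENCODE M21, whose loci matched 92.7% of the genes; estimated fragments use the same lengths. Members and lists were chosen with earlier results of these data known. Per-library values were given for the 12 largest called changes in TAA against Control, any member called in Recovery against Control, the ligands and receptors highest in Control and named ligand and receptor pairs, and other members were named by role. Figures and text leave out some members. Alternatives were other pseudocounts, filters, scalings, fits and left-out libraries.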

Additional observations from a re-analysis of the deposited data

How the results depend on the processing

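In TAA against Control, 17 members and 3520 genes were called. With a pseudocount of 1 these were 7 and 1780, with a mean of at least 1 FPKM, where 17 members were tested, 7 and 2204, and with limma treat against a 2-fold change 8 and 1441. In Recovery against TAA, 16 members and 3017 genes became 7 and 1460, 9 and 1895, and 8 and 1084 under the same settings. In Recovery against Control, 0 members and 140 genes were called. All 9 libraries in 1 fit gave 1 and 235, and the genes were 80 with a pseudocount of 1, 48 without the minimum, 85 without the trend, 0 with treat and 17 with the replicate block.

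Leaving out 1 library at a time gave 16 to 19 members and 3412 to 3579 genes in TAA against Control, 12 to 17 and 2910 to 3135 in Recovery against TAA, and 0 to 0 and 32 to 106 in Recovery against Control, where the genes were 51 without Control replicate 2, 36 without Control replicate 3, 32 without Recovery replicate 2 and 39 without Recovery replicate 3. Calls of 6 members in TAA against Control (Ccl2, Cxcl10, Cxcl14, Cx3cl1, Ccr2 and Cxcr4) and of 5 in Recovery against TAA (Ccl2, Cxcl1, Cxcl14, Cx3cl1 and Ccr2) held in each alternative that tested them. Member differences with an unadjusted p under 0.05, or called in any setting, were followed through all settings. Among them quantile normalization changed the sign of Ccl24 (-0.11) and Ccr9 (-0.18) in TAA against Control and Cx3cr1 (0.06) in Recovery against TAA, and FPKM as deposited that of Cxcl11 (0.20 and -0.09 in these comparisons) and Cxcr6 (0.15 in TAA against Control), none of them called there or with the chosen scaling. Of the remaining differences, with an unadjusted p of 0.05 or more and called in no setting, 9 of 9, 12 of 13 and 14 of 27 in the 3 comparisons changed sign in some setting, so no direction is given for them. The cause of these changes was not tested. The replicate block left 17 and 16 members called in the first 2 comparisons. The replicate numbers do not mark shared animals: deviations of same-numbered libraries correlated between -0.0705 and 0.125 over 9 pairs, and 3 of 18 best matches were to the same number. Members with few estimated fragments, such as Ccl7 and Xcl1, have uncertain levels.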
